A study of Mus musculus with 8 samples.

Results

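The genes described are the 8 that make up the cholinergic system of these tissues in its simplest form: *Chat*, *Slc5a7*, *Slc18a3* and *Ache*, which make, recover, package and break down acetylcholine, and the muscarinic receptor genes *Chrm1*, *Chrm2*, *Chrm3* and *Chrm4*. They were taken by gene symbol from the 31053 genes of 8 single-cell RNA sequencing libraries and followed over the 23687 cells that carry a deposited cell type, 8997 from the prefrontal cortex (PFC) and 14690 from the striatum. The study asked how losing 1 copy of *Setd1a*, a histone H3K4 methyltransferase gene linked to schizophrenia, alters transcription in each cell type. Each tissue had 2 wild-type (WT) and 2 *Setd1a*+/- libraries. All mice were male C57BL/6N, with an age of 8 to 10 weeks on the labels (the methods of the study give an older age), and each library pooled the tissue of 2 mice. The *Setd1a*+/- mice carried a heterozygous CRISPR-Cas9 mutation in the exon that precedes those encoding the catalytic SET domain, and the WT mice were the controls. The striatal samples are labelled NAc (nucleus accumbens), while the study describes its tissue as dorsal and ventral striatum together. Cells were freed with papain and captured on the 10x Chromium platform.

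Acetylcholine is made from choline and acetyl-CoA by choline acetyltransferase, the product of *Chat*. The vesicular acetylcholine transporter (*Slc18a3*) loads it into synaptic vesicles, acetylcholinesterase (*Ache*) cleaves it outside the cell, and the high-affinity choline transporter (*Slc5a7*) returns the choline to the terminal. In the striatum the main local source is a sparse class of large, tonically active interneurons, whereas the PFC receives most of its acetylcholine from axons of the basal forebrain, whose cell bodies lie outside the dissected tissue. The receptors M1 and M3 (*Chrm1*, *Chrm3*) signal through Gq proteins and phospholipase C, and M2 and M4 (*Chrm2*, *Chrm4*) through Gi proteins.

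The libraries held between 15154268 and 26277553 UMIs (unique molecular identifiers, each standing for 1 captured RNA molecule), and any 2 libraries shared at most 0.877% of the cell barcodes of the smaller one. Levels are given as CPM: within a library and cell type, a gene's summed UMIs divided by the sum over every gene, on the standard CPM scale. As a check of the labels, *Setd1a* stood at 8.45 and 11.2 CPM in the WT and at 5.59 and 9.33 CPM in the *Setd1a*+/- PFC libraries, and at 13.4 and 15.2 against 9.16 and 12.5 CPM in the striatum. The genotypes overlapped in the PFC and did not overlap in the striatum. The defining markers were present in the deposited types: PFC interneurons had on average 1593 CPM of *Gad1*, D1 and D2 medium spiny neurons (MSNs) had 152 CPM of *Drd1* and 182 CPM of *Drd2*, and newly formed oligodendrocytes had 1323 CPM of *Enpp6* in the PFC and 956 CPM in the striatum. Striatal interneurons had 588 CPM of *Gad1* and also carried the excitatory markers *Slc17a7* and *Neurod6* in every library, *Slc17a7* at 149 to 251 CPM against 0 to 17.9 CPM in PFC interneurons.

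The 8 genes were covered very unevenly. Over all annotated cells, 2702 UMIs fell on *Chrm1*, 1499 on *Ache*, 696 on *Slc5a7*, 549 on *Chrm3*, 409 on *Chrm2*, 97 on *Slc18a3*, 50 on *Chat* and 5 on *Chrm4*. Since the chemistry reads the 3′ ends of transcripts, levels are compared here between cells and not between genes. *Chrm4* (chr2:91927249-91928688, plus strand, GRCm38) is a gene of 1 exon whose GENCODE vM21 model has 0 bases of 3′ untranslated region, while the RefSeq model runs 1147 bases further in the 3′ direction. The annotation version behind the counts is not given in the sources used here, and the effect of this difference on the *Chrm4* count was not tested.

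*Chat* and *Slc18a3* form a nested pair known as the cholinergic gene locus. *Chat* occupies chr14:32408203-32465989 on the minus strand of GRCm38 with 16 exons, and *Slc18a3*, a gene of 1 exon at chr14:32462438-32464850, lies within intron 1 of *Chat* (32460914-32465806) on the same strand, so that unspliced *Chat* RNA and *Slc18a3* RNA cannot be fully separated in the counts. *Slc5a7* lies apart on the minus strand of chromosome 17 (chr17:54273590-54299034, 9 exons). The promoters of these 3 genes are shown because they mark the same cells in the results that follow. Each sequence runs from 250 bases before to 50 bases after the RefSeq start site (GRCm38.p6, minus strand), in lower case, with capitals for TGACG, the core of the cyclic AMP response element, or its reverse complement CGTCA.
Chat promoter, chr14:32465860-32466159: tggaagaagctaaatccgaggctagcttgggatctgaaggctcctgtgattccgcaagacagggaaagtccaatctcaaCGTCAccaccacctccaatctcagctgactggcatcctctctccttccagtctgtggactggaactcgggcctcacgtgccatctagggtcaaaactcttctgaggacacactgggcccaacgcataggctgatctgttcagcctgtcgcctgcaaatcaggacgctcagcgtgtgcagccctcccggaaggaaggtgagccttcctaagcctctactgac
Slc18a3 promoter, chr14:32464801-32465100: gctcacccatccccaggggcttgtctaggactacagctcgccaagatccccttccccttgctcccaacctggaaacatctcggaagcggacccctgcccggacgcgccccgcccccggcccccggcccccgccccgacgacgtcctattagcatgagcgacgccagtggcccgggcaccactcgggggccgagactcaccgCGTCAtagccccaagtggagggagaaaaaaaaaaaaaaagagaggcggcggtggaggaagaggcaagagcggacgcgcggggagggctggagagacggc
Slc5a7 promoter, chr17:54298985-54299284: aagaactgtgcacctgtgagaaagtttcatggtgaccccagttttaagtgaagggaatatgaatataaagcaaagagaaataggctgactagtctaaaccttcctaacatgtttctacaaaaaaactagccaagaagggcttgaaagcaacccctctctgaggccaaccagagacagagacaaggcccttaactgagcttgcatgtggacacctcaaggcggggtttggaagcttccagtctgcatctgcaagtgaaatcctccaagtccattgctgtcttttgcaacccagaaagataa
The *Chat* promoter held 1 match, at position -171 from the start site, and the *Slc18a3* promoter held 1 match, at position -49. No match stood in the *Slc5a7* window or in those of *Ache*, *Chrm2*, *Chrm3* and *Chrm4*, which with the 3 shown make the 7 of 8 genes found in the promoter table. On either strand, 20.8% of 32851 mouse promoters of the same 300 bases hold this motif. The homeodomain core TAATTA, which reads the same on both strands, occurs in 5.29% of promoters and in none of these 7. The GC content was 67% for *Slc18a3*, 55.7% for *Chat* and 44.7% for *Slc5a7*, against a median of 52.7% over all promoters, and a motif match is a description of the letters only.

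Among annotated cells, *Chat* and *Slc18a3* RNA was found almost entirely in striatal interneurons. *Chat* stood there at 12.1 and 16.5 CPM in the WT libraries, against 9.85 and 3.77 CPM in the *Setd1a*+/- libraries, which is 48 of the 49 *Chat* UMIs of the annotated striatal cells. The remaining UMI fell in a D2 MSN, and the PFC held 1 *Chat* UMI, in an interneuron of *Setd1a*+/- replicate 1. *Slc18a3* followed the same order, with 25.0 and 25.5 CPM in WT against 16.0 and 10.4 CPM in *Setd1a*+/- striatal interneurons and at most 1.72 CPM in a library of any other striatal type. In both genes the striatal interneuron libraries lay above every library of the other types, and the other types could not be ordered at this depth. Near-empty striatal droplets carried 2.64 to 5.59 CPM of *Chat* and 2.97 to 6.62 CPM of *Slc18a3*, a range that holds the 3.77 CPM of *Chat* in *Setd1a*+/- replicate 2 interneurons. Striatal barcodes with no annotation held 23 *Chat* UMIs in those with at least 1000 UMIs, 69 in those with at most 100, and 34 in those between.

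*Slc5a7* had a wider distribution. In striatal interneurons it reached 92.4 and 202 CPM in WT against 131 and 91.5 CPM in *Setd1a*+/-, a mean of 129 ± 52.1 (SD, n = 4 libraries). Newly formed oligodendrocytes, the cells between progenitors and myelinating oligodendrocytes, came next in the striatum at 33.5 ± 19.9 CPM (10.6 to 51.1) and without overlap with the interneurons. In the PFC, where no excitatory neuron carried it, newly formed oligodendrocytes had the highest level: 38.7 and 15.3 CPM in WT against 42.9 and 26.9 CPM in *Setd1a*+/-. All 4 of these libraries lay above every library of the next PFC types, the interneurons at 6.30 ± 2.04 and the oligodendrocyte progenitors (OPCs) at 5.51 ± 3.91 CPM, which overlapped each other.

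Counted by cells, *Slc5a7* was detected in 8.47% of 295 PFC newly formed oligodendrocytes (95% Wilson interval 5.81% to 12.2%) and in 10.3% of the 165 in the striatum (6.53% to 15.9%). PFC endothelial cells, which should lack the gene, gave 0.0640%, at a median depth of 2124 to 2756 UMIs per cell against 2275 to 3970 in the newly formed oligodendrocytes. When every cell was thinned to 1000 UMIs the shares were 3.73% in the PFC and 2.42% in the striatum, with 0 endothelial cells in the PFC. Droplets with at most 100 UMIs, which hold mostly free RNA, had at most 1.22 CPM of *Slc5a7* in the PFC libraries. In the striatum such droplets carried 17.3 and 24.9 CPM (WT) or 9.20 and 19.7 CPM (*Setd1a*+/-), against 51.1 and 10.6 CPM (WT) or 49.2 and 22.9 CPM in the newly formed oligodendrocytes of the same libraries, which lay below their droplets in WT replicate 2. Striatal endothelial cells gave 0.200%, and 0.150% when thinned, so the level in striatal newly formed oligodendrocytes is less firm than that in the PFC. These intervals, and the limits given for counts of 0, cover counting error only.

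*Ache* was not confined to cholinergic cells. In the striatum it stood at 68.2 and 123 CPM in WT against 78.8 and 89.6 CPM in *Setd1a*+/- interneurons, at 50.2 ± 9.37 CPM in OPCs, at 26.2 ± 2.83 CPM in D1 MSNs and at 20.4 ± 4.75 CPM in D2 MSNs. Interneurons did not overlap OPCs, and OPCs did not overlap D1 MSNs, whereas D1 and D2 MSNs overlapped. Near-empty striatal droplets carried 38.4 to 51.8 CPM of *Ache*, above the level in either MSN type and in the range of the OPC libraries (37.3 to 58.4 CPM), so that the part of the MSN and OPC signal that is free RNA was not separated.

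In the PFC the level of *Ache* differed between the libraries numbered 1 and those numbered 2, and not along genotype. Over all annotated cells it was 1.83 CPM in WT replicate 1 and 22.3 CPM in WT replicate 2, and 1.09 and 21.8 CPM in the *Setd1a*+/- replicates 1 and 2. The log2 difference between the replicates was 3.04 in WT and 3.45 in *Setd1a*+/-, and of the 12447 PFC genes with at least 100 UMIs, 18, with *Ache* counted, moved at least as far in the same direction in both genotypes. The split was present in interneurons (5.72 and 65.7 CPM in WT, 2.22 and 72.8 CPM in *Setd1a*+/-), in OPCs (8.99, 40.4, 0 and 53.6 CPM in the same order) and in the near-empty droplets (2.30, 23.0, 1.22 and 15.5 CPM). In the striatum the corresponding differences were 0.51 and 0.84. The deposited cell tables name these libraries b1 and b2, a suffix that is not explained, and by the study's methods each biological replicate held 1 WT and 1 mutant sample, so the split runs along the replicate. No date is given, and what differed between the replicates was not tested.

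**Figure D1:**
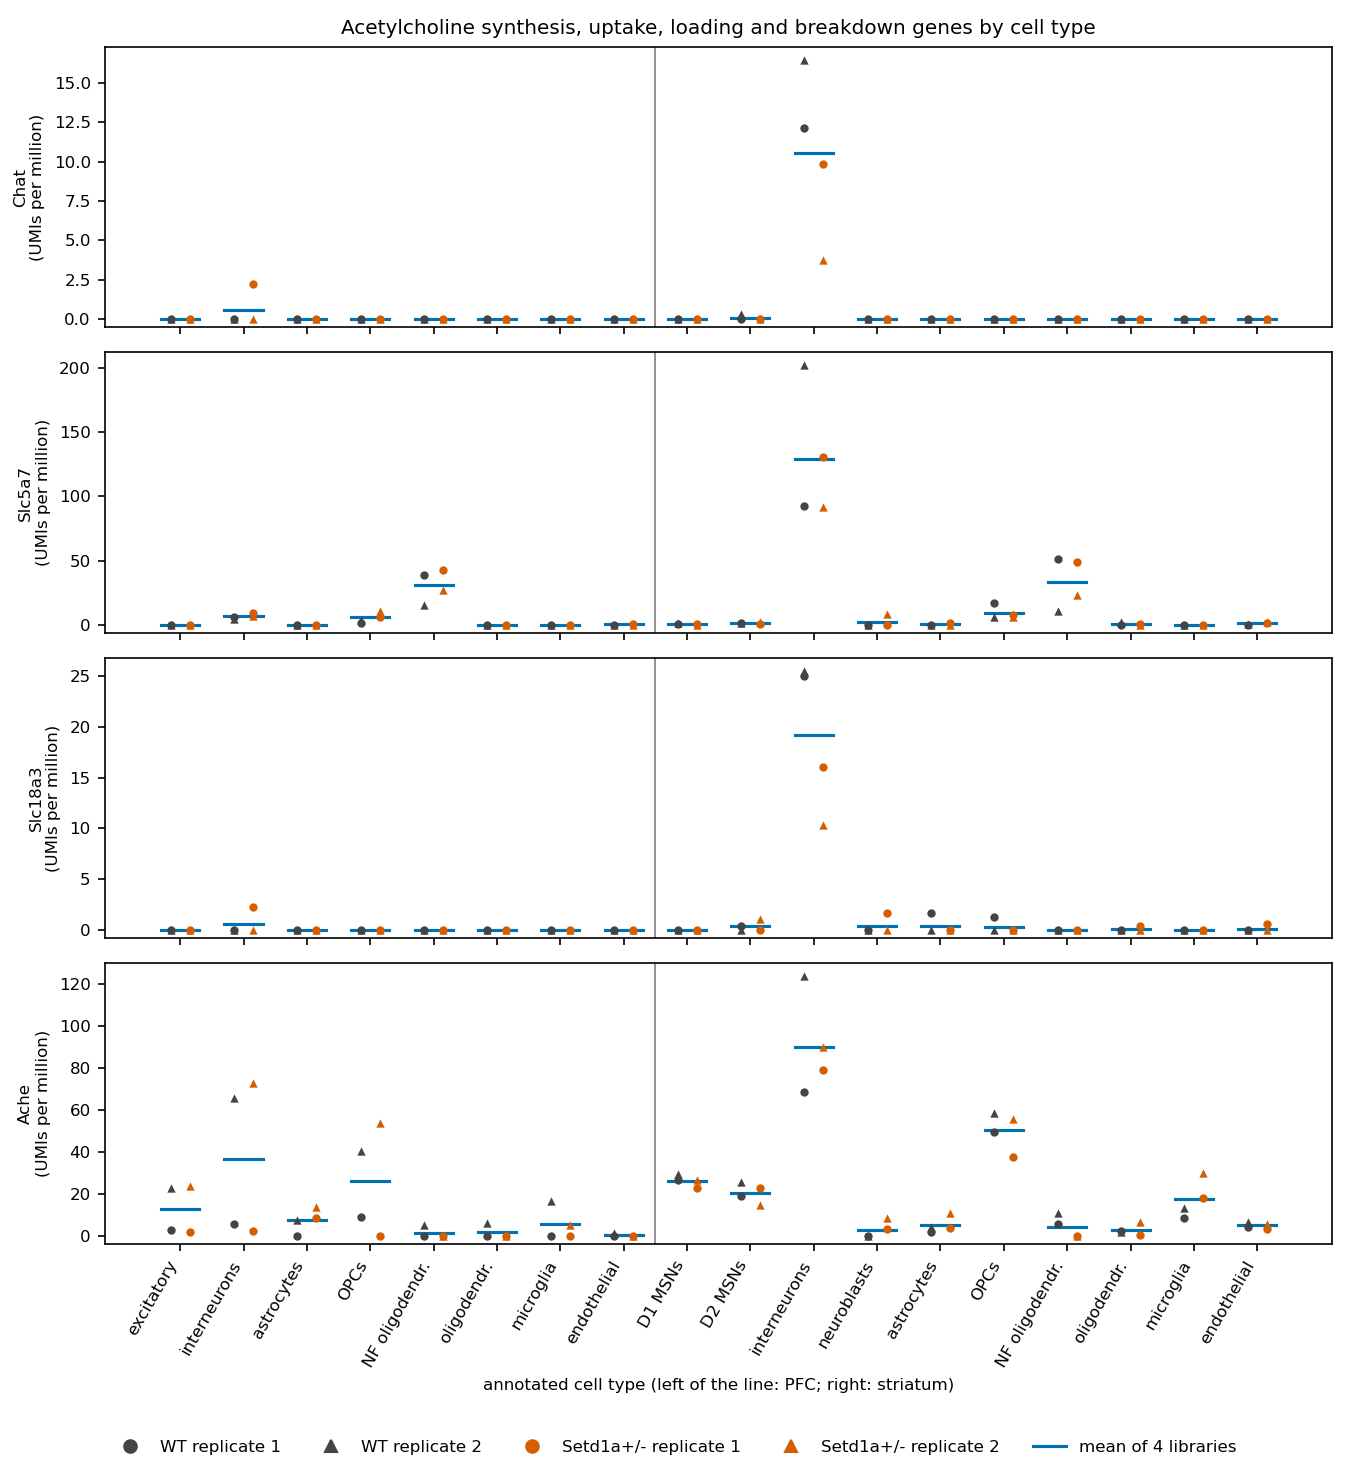
Level of *Chat*, *Slc5a7*, *Slc18a3* and *Ache* (vertical axes, CPM, each panel with its own scale) in each annotated cell type of the PFC, left of the line, and the striatum, right of it. Points are libraries and bars are means of 4 libraries; the striatal interneurons stand highest in all 4 panels, *Slc5a7* is also present in newly formed (NF) oligodendrocytes, and the PFC points of *Ache* split into circles (replicate 1) near 0 and triangles (replicate 2) above them.

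*Chat*, *Slc5a7* and *Slc18a3*, the genes that define a cholinergic neuron, were found in the same cells. Among the 821 striatal interneurons, 15 carried UMIs of *Chat*, *Slc5a7* and *Slc18a3* together, 3 of *Chat* and *Slc5a7*, and 5 of *Slc5a7* and *Slc18a3*. A further 22 carried *Slc5a7* alone, no cell carried *Chat* or *Slc18a3* without *Slc5a7*, and 776 carried none. *Chat* was detected in 40.0% of the 45 cells with *Slc5a7* (27.0% to 54.5%) and in 0 of the 776 cells without it, a share of up to 0.493%. Since *Slc18a3* lies in an intron of *Chat*, its joint detection with *Chat* is not an independent count.

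Cells with at least 2 of the 3 genes are called cholinergic below. They numbered 23, or 2.80% of the striatal interneurons (1.87% to 4.17%), and none of the other striatal types held such a cell, with 95% Wilson upper limits from 0.0983% of D1 MSNs to 2.28% of newly formed oligodendrocytes. The PFC held 1, among 298 interneurons. They had a median of 9942 UMIs (5292 to 20798) against 4742 in the other striatal interneurons, and doublets were not called. *Slc5a7* had a median of 17 UMIs and a highest value of 73 UMIs per cholinergic cell, while no other interneuron had more than 3. In WT replicate 1, for instance, 113 of the 122 interneuron UMIs of *Slc5a7* came from the 7 cholinergic cells.

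The share of cholinergic cells was compared between genotypes over libraries. They were 7 of 246 striatal interneurons (2.85%) and 8 of 189 (4.23%) in the WT libraries and 2 of 138 (1.45%) and 6 of 248 (2.42%) in the *Setd1a*+/- libraries. Both *Setd1a*+/- shares lay below both WT shares, with means of 3.54% ± 0.98 and 1.93% ± 0.69 (SD, n = 2 each). The difference of -1.60 percentage points had p = 0.3333 by an exact permutation test over libraries (two-sided), the smallest value that 2 libraries against 2 allow, and the Wilson intervals of all 4 libraries overlapped. The share was lower in *Setd1a*+/- within both replicate numbers. The difference was -0.911 points without WT replicate 2 and -2.30 points without WT replicate 1. With cells thinned to 1000 UMIs it was -0.797 points, at 7 cells in all.

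Genes other than the 3 that picked these cells were then tested between cholinergic and other interneurons within libraries. *Setd1a*+/- replicate 1, which had 2 cholinergic cells, was left out, and 21 cholinergic cells were set against 662 others in 3 libraries. Of 6963 genes tested, 593 passed (8.52%, at an adjusted p under 0.05 and a fold change above 2), 219 higher and 374 lower in cholinergic cells, the 3 picking genes included. DESeq2 called 270. The median log2 fold change over all genes was -0.12. With only 3 libraries in the fit, the edgeR p-values of this comparison rest mostly on a spread estimated with information shared over all genes tested. They say little about the spread of a single gene between libraries.

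*Ache* was higher in cholinergic cells. It stood at 366, 565 and 453 CPM in the cholinergic cells of WT replicates 1 and 2 and *Setd1a*+/- replicate 2, against 53.3, 83.4 and 74.6 CPM in the other interneurons of the same libraries, and in the library left out at 407 against 65.4 CPM. The log2 fold change was 2.66 (SE 0.24, adjusted p = 1.65e-20 by edgeR's quasi-likelihood test), with the cholinergic cells higher in 4 of 4 libraries and no overlap. *Ache* was detected in 91.3% of the cholinergic and 25.7% of the other interneurons, and in 39.1% and 6.27% when both were thinned to 1000 UMIs.

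No muscarinic receptor gene passed the test, and their counts in the cholinergic cells were low. *Chrm1* had 1 UMI in the 21 cholinergic cells (0, 9.92 and 0 CPM in the 3 libraries) and 115 in the others (40.6, 31.4 and 28.5 CPM). Its pooled level was 6.97 times as high in the other interneurons with a counting interval of 1.23 to 278, and the test gave a log2 fold change of -2.79 (SE 1.15, adjusted p = 0.109, edgeR). *Chrm2*, whose product is the inhibitory autoreceptor on many cholinergic terminals, had 2 UMIs in cholinergic cells, both in WT replicate 1, and its log2 fold change of -1.20 (SE 1.04, adjusted p = 0.575, edgeR) did not pass. *Chrm3* was found in 0 of 23 cholinergic cells, a share of up to 14.3%, against 7.02% of the others, which is not distinguishable at this depth. *Chrm4* had no UMI in any interneuron.

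The other genes of the pathway were followed as 4 lists. Of the 9 cholinergic identity genes, 4 were tested and all 4 were higher, but genes that are low elsewhere could pass the filter on low counts only through the cholinergic cells, so the count itself is no support. *Lhx8* and *Isl1*, LIM homeodomain factors of cholinergic interneuron development, were at 494, 675 and 453 CPM and at 478, 347 and 406 CPM in the cholinergic cells of the 3 libraries, with log2 fold changes of 3.54 (SE 0.25, adjusted p = 8.59e-30) and 3.80 (SE 0.30, adjusted p = 5.35e-25, both edgeR). *Slc17a8*, the vesicular glutamate transporter VGLUT3 that these interneurons co-express, had a log2 fold change of 3.93 (SE 0.37, adjusted p = 6.89e-19, edgeR). At 17.4 CPM in the other interneurons it could pass that filter only through the cholinergic cells, so its call is no support. The same holds for *Isl1*, which fell just short of the filter in the other interneurons of *Setd1a*+/- replicate 2.

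Against the 8.52% of all genes called in this comparison, the counts of the other lists are small and not read as results about them. Among 9 further genes of acetylcholine handling, 5 were tested, 1 was higher and 1 was lower. *Prima1*, which encodes the membrane anchor of acetylcholinesterase, was the one that was higher, and with 3 UMIs in the other interneurons it could pass the filter only through the cholinergic cells, so the call is no support. It stood at 239, 258 and 429 CPM in cholinergic cells against 0.795, 1.79 and 0 CPM in the others, and its 59 UMIs against 3 give a pooled ratio of 325 (106 to 1619). *Lypd6*, a modulator of nicotinic receptors, had 0 UMIs against 97, at least 1.96-fold lower, and that call was lost in 5 of the 8 alternatives that gave an adjusted p, among them each that left out 1 of the 3 libraries (adjusted p from 0.101 to 0.308, edgeR). None of 2 nicotinic subunits tested (of 9) was called. Both had an unadjusted p under 0.05 (edgeR), as did 1456 of all 6963 genes tested. *Chrnb2* gave a log2 fold change of 1.65 (adjusted p = 0.0909, edgeR). At 15.0 CPM in the other interneurons, *Chrnb2* could pass the filter only through the cholinergic cells. *Chrna4* went the other way, with 0 UMIs against 67, at least 1.35-fold lower (adjusted p = 0.101, edgeR). Of 16 muscarinic effectors, 13 were tested and 1 fell, *Plcb1*, which encodes 1 of the phospholipase C isoforms downstream of Gq. It had 3 UMIs against 513 and a log2 fold change of -3.41 (SE 0.55, adjusted p = 1.90e-07, edgeR).

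Markers of other neurons did not all go one way in the cholinergic cells. The excitatory markers *Slc17a7* and *Neurod6* had 0 UMIs there and 218 and 112 CPM in the other interneurons, and *Npy* and *Sst* stood at 9.73 and 63.3 CPM against 3173 and 3982 CPM. *Gad1* was at 97.3 against 588 CPM, and *Gad2* at 316 against 416 CPM. The D2 MSN markers *Drd2*, a receptor gene also known in cholinergic interneurons, and *Penk* stood at 102 and 97.3 CPM against 7.96 and 146 CPM, while the D1 MSN marker *Drd1* had 0 UMIs against 96. Of the OPC markers, *Pdgfra* had 5 UMIs in the cholinergic and 8 in the other interneurons (24.3 and 2.36 CPM). *Vcan* had 3 and 29 UMIs (14.6 and 8.55 CPM), and doublets were not called. The part that the mixture within the other interneurons, or the greater depth of the cholinergic cells, played in the 593 calls was not tested.

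**Figure D2:**
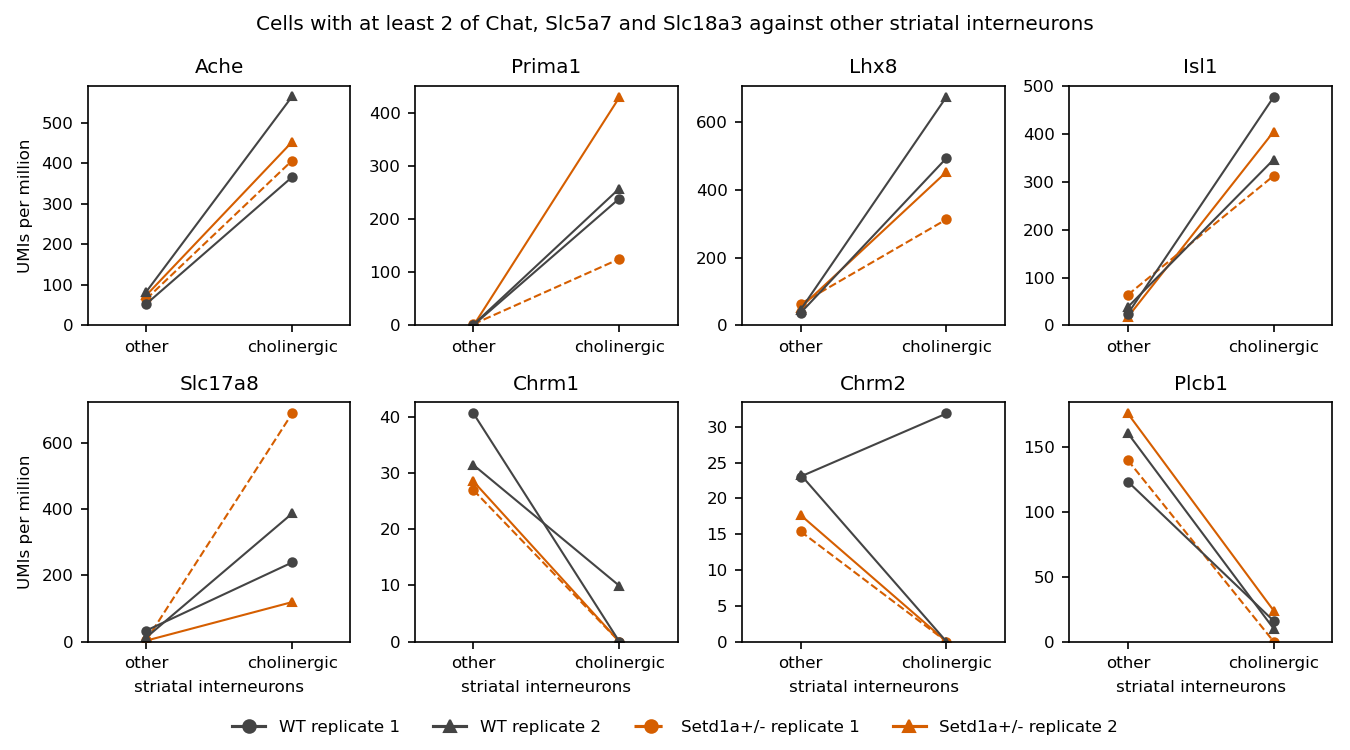
Level (vertical axes, CPM, each panel with its own scale) in cholinergic and other striatal interneurons, with 1 line per library and the library left out of the test (*Setd1a*+/- replicate 1) dashed. *Ache*, *Prima1*, *Lhx8*, *Isl1* and *Slc17a8* are higher in the cholinergic cells of all 4 libraries, *Chrm1* and *Plcb1* are lower in all 4, and *Chrm2* is at 0 in 3 and higher in WT replicate 1.

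*Chrm1*, the M1 receptor gene, followed the principal neurons. In PFC excitatory neurons it was at 56.4 and 59.2 CPM in WT against 47.0 and 70.9 CPM in *Setd1a*+/-, a mean of 58.4 ± 9.85. PFC interneurons came next at 23.8 ± 1.64 CPM without overlap, and OPCs after them at 6.93 ± 2.35 CPM, again without overlap. In the striatum D1 and D2 MSNs stood at 59.8 ± 6.28 and 59.7 ± 11.4 CPM and could not be ordered, since the higher of them changed when some libraries were left out. Both lay above the striatal interneurons (30.4 ± 5.72 CPM, 25.9 to 38.6). Near-empty droplets carried 18.7 to 36.5 CPM of *Chrm1* in the PFC and 50.5 to 62.8 CPM in the striatum, and 4.80% of striatal microglia, which should lack the gene, had a UMI against 17.6% of D1 MSNs. Those shares were not thinned to a common depth, so they do not compare levels.

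*Chrm2*, the M2 receptor gene, was in the striatum highest in the cells annotated as interneurons. It stood at 23.5 and 21.4 CPM in WT against 14.8 and 17.0 CPM in *Setd1a*+/- interneurons, against at most 4.20 CPM in a library of any other striatal type. MSNs were close to 0, with 8 UMIs in 3904 D1 and 2 UMIs in 2451 D2 MSNs. *Chrm3*, the M3 receptor gene, was also highest in striatal interneurons (19.7, 11.5, 18.5 and 8.49 CPM in the same order) and did not overlap D2 MSNs at 4.09 ± 1.26 CPM. D1 MSNs had 0.875 ± 0.818 CPM of *Chrm3*, below every D2 library (2.06 CPM at most against 3.12 CPM at least). Cells annotated as striatal interneurons also carried excitatory markers, and the part of that mixture in their *Chrm2* and *Chrm3* levels was not tested. Near-empty striatal droplets carried 2.97 to 5.59 CPM of *Chrm3*, a range that holds 3 of the 4 D2 MSN libraries, so the part of the D2 MSN signal that is free RNA was not separated, and 1.78 to 2.40 CPM of *Chrm2*.

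In the PFC, *Chrm3* was shared by excitatory neurons (20.7 ± 2.60 CPM) and interneurons (18.7 ± 9.38 CPM), whose ranges overlapped, and the next type, microglia, reached at most 5.41 CPM. Near-empty PFC droplets carried 7.32 to 19.1 CPM of *Chrm3*, a range that holds 3 of the 4 interneuron libraries, and 3.44 to 4.88 CPM of *Chrm2*. *Chrm2* gave 15.4 ± 5.15 CPM in excitatory neurons and 6.18 ± 6.32 CPM in interneurons, also overlapping. The interneuron libraries stood at 8.57 and 13.9 CPM in WT (3 and 7 UMIs) against 2.22 and 0 CPM in *Setd1a*+/- (1 and 0 UMIs). These counts were too low for a genotype test. The 5 *Chrm4* UMIs all fell in D1 MSNs, with 2, 1, 0 and 2 UMIs in the 4 libraries among 3904 cells. In D2 MSNs a count of 0 allows a level of up to 0.345 CPM, against 0.382 ± 0.338 CPM in D1 MSNs, so a difference between the MSN types was not detectable at this depth.

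**Figure D3:**
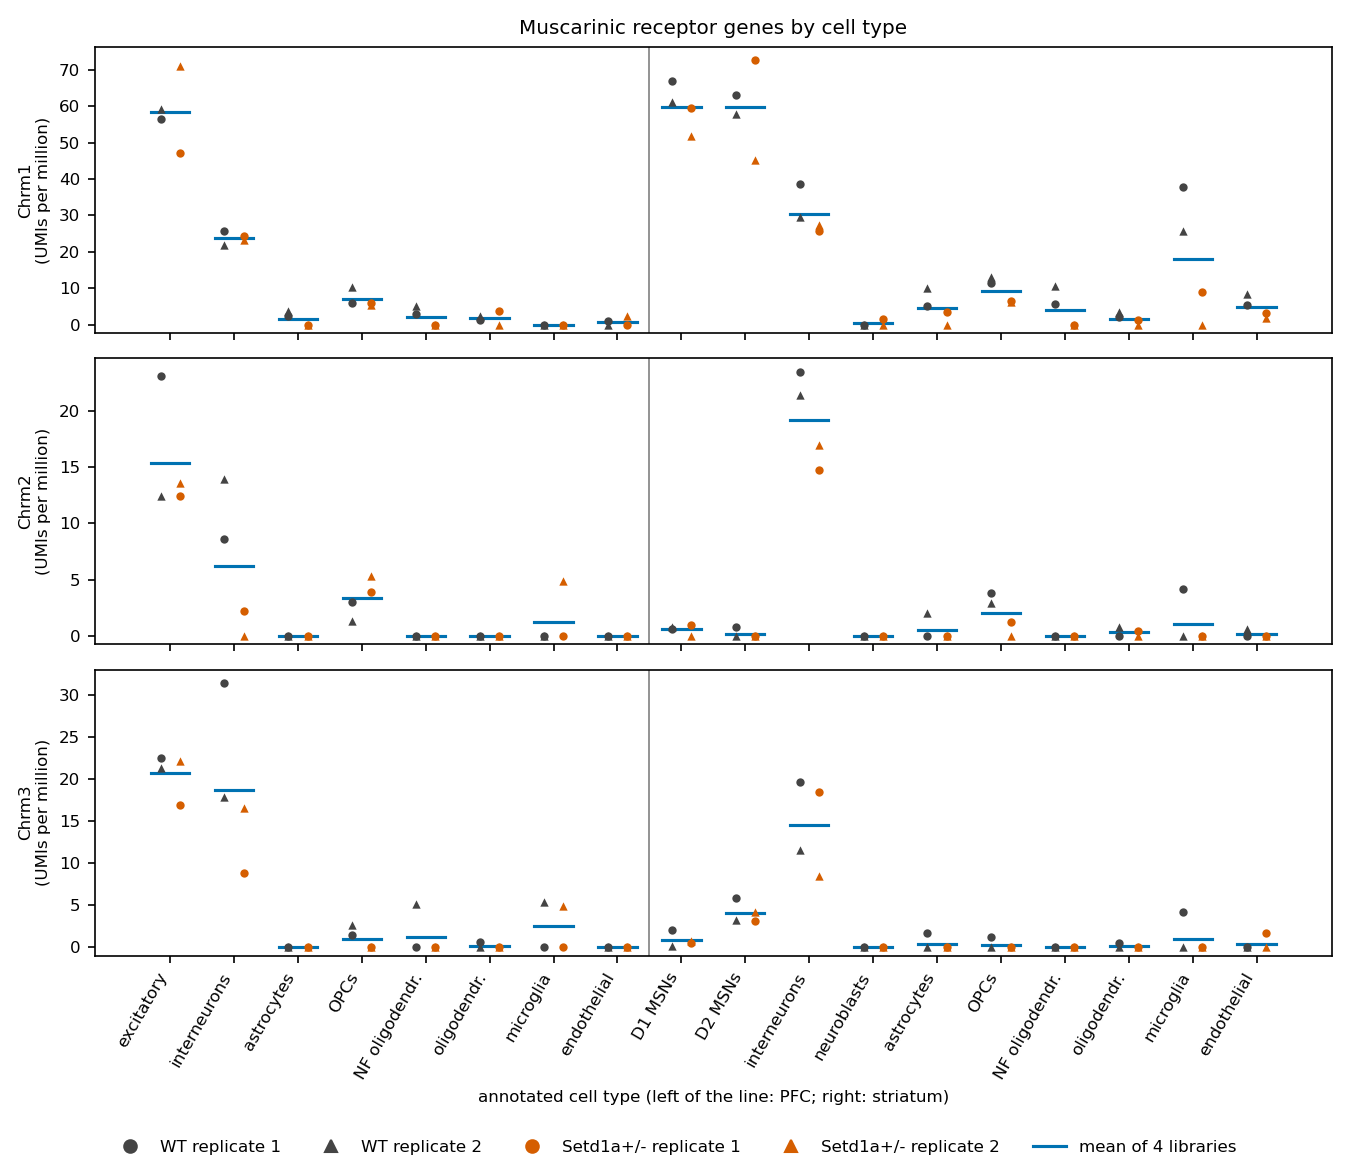
Level of *Chrm1*, *Chrm2* and *Chrm3* (vertical axes, CPM, each panel with its own scale) in each annotated cell type of the PFC, left of the line, and the striatum, right of it; points are libraries and bars means of 4. *Chrm1* is highest in excitatory neurons and in both MSN types, whereas *Chrm2* and *Chrm3* are highest among striatal types in interneurons.

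Within PFC excitatory neurons the receptors separated by subtype, named in the deposited annotation by deep (DL) or superficial layer (SL) and a marker gene. *Chrm2* was concentrated in DL-Tshz2, at 119 and 74.1 CPM in WT against 69.3 and 92.5 CPM in *Setd1a*+/- (mean 88.7 ± 22.6), and no library of another subtype reached these values. DL-Nnat followed at 24.3, 25.8, 21.1 and 23.4 CPM in the same order. DL-Pou3f1 overlapped DL-Nnat with 5 UMIs in 62 cells, and DL-Etv1, SL-Cux2, DL-Foxp2 and SL-Myh7 lay at 12.4 CPM or below. *Chrm2* was detected in 28.0% of 304 DL-Tshz2 cells and in 1.62% of 743 DL-Foxp2 cells, which were the deeper of the pair by median UMIs, and in 9.21% and 0.269% when thinned to 1000 UMIs.

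DL-Tshz2 stood at the other end for the Gq-coupled receptors. *Chrm3* had 1 UMI in its 304 cells (0, 0 and 0 CPM in 3 libraries and 6.61 CPM in *Setd1a*+/- replicate 2). SL-Myh7 had the highest mean of *Chrm3* at 41.4, 49.9, 37.0 and 56.0 CPM in WT and *Setd1a*+/- libraries, followed by DL-Foxp2 at 40.8, 25.7, 31.0 and 41.1 CPM, and these overlapped. All 4 libraries of SL-Cux2 (10.6 ± 1.09 CPM) lay above those of DL-Tshz2 and within the range of the near-empty droplets, while DL-Pou3f1 had a library at 0.

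*Chrm1* was likewise lowest in DL-Tshz2, at 24.3 and 28.5 CPM in WT against 18.5 and 19.8 CPM in *Setd1a*+/-. The other 6 subtypes had means from 53.6 ± 14.2 CPM in DL-Foxp2 to 85.4 ± 18.2 CPM in SL-Myh7, and neighbours among them overlapped. Only DL-Pou3f1, with 16.8 CPM in WT replicate 1 and few cells, fell as low as the DL-Tshz2 libraries. Since subtypes are clusters of the same cells, these orders are descriptions and carry no test.

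**Figure D4:**
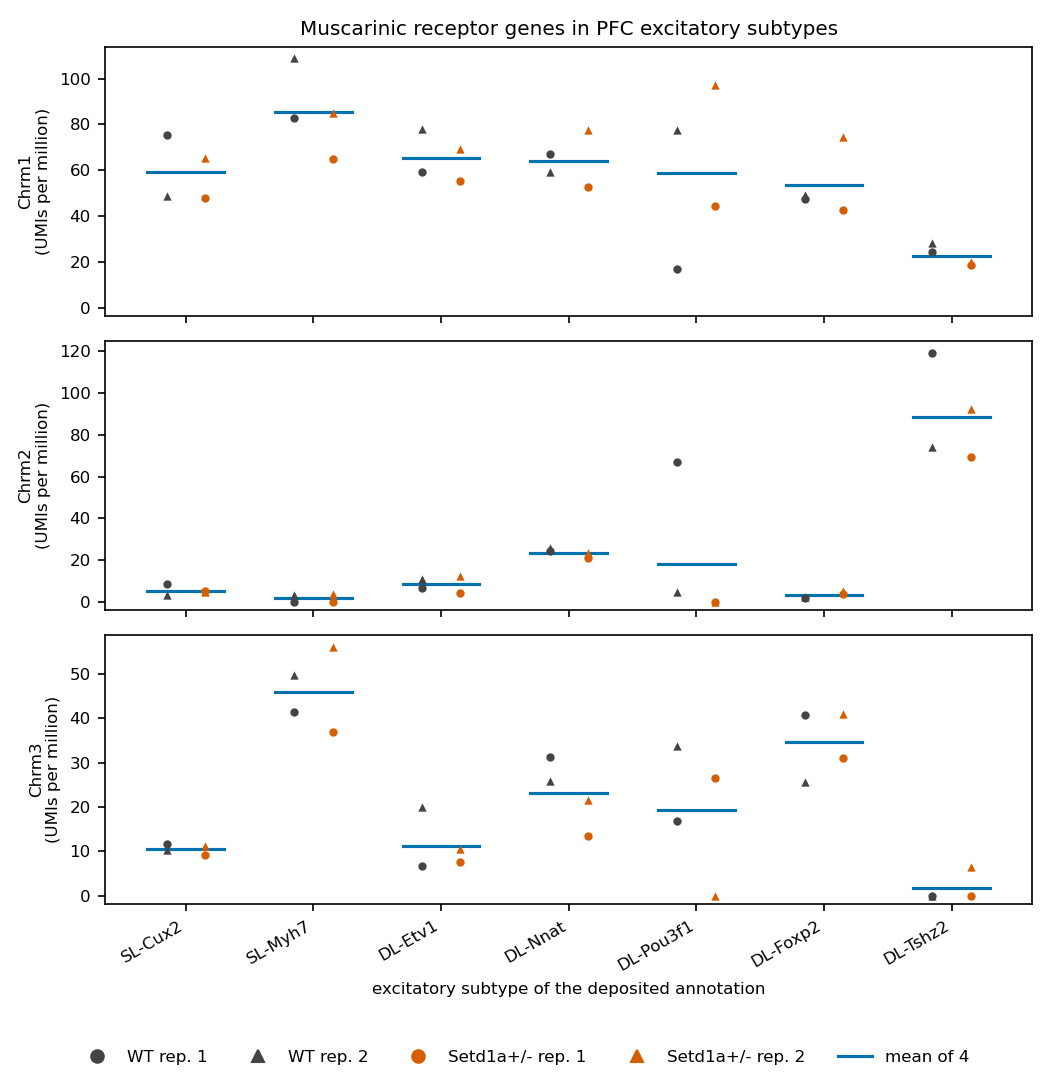
Level of *Chrm1*, *Chrm2* and *Chrm3* (vertical axes, CPM, each panel with its own scale) in the 7 PFC excitatory subtypes of the deposited annotation; points are libraries and bars means of 4. In DL-Tshz2 the *Chrm2* points lie at 69.3 CPM or above, while *Chrm1* has its lowest mean there and *Chrm3* is at 0 in 3 of 4 libraries.

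Interneurons and glia were annotated in both tissues, which allowed the striatum to be set against the PFC with 4 libraries a side and genotype in the fit. In interneurons, 4 of the 8 genes were tested and 1 passed (*Slc5a7*), where 11.8% of 7419 genes passed at an adjusted p under 0.05 and a fold change above 1.5. *Slc5a7* was at 5.72, 3.98, 8.88 and 6.62 CPM in PFC interneurons and at 92.4, 202, 131 and 91.5 CPM in striatal ones, a log2 difference of 4.36 (SE 0.41, adjusted p = 4.26e-06, edgeR), with no overlap of the tissues and the call kept in every alternative. *Chat* and *Slc18a3*, with 1 UMI each in PFC interneurons, did not pass the filter on low counts. *Slc5a7* had at most 4 UMIs in a PFC library and passed that filter through the striatal libraries, so the count of 1 in 4 is not read as support. By cells, 1 of 298 PFC interneurons and 23 of 821 striatal ones were cholinergic, and the 10 *Slc5a7* UMIs of all PFC interneurons are fewer than the median of 17 in 1 striatal cholinergic cell.

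*Ache* did not pass in this comparison, with a log2 difference of 1.34 (SE 0.50, adjusted p = 0.102, edgeR), and its result turned on the PFC libraries numbered 2. Without PFC WT replicate 2 it was 2.00 (adjusted p = 0.0378) and without PFC *Setd1a*+/- replicate 2 it was 1.87 (adjusted p = 0.0248, both edgeR), past the threshold in each case. It also passed with the replicate number as a block (1.47, adjusted p = 0.0254) and with no filter on low counts (1.41, adjusted p = 7.85e-07, both edgeR). In OPCs *Ache* gave 0.99 (SE 0.54, adjusted p = 0.431, edgeR), where 0.158% of genes passed, and it was called with no filter (1.03, adjusted p = 0.0251, edgeR). *Chrm1* at 0.39 (SE 0.26) and *Chrm3* at -0.30 (SE 0.39) did not pass in interneurons, and in the remaining 5 shared types (astrocytes, endothelial cells, microglia, newly formed oligodendrocytes and oligodendrocytes, with backgrounds of 10.4%, 6.06%, 21.4%, 0.0663% and 2.7%) no member had enough counts to be tested.

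The pathway lists are read against the 11.8% of all genes called between striatal and PFC interneurons. Only *Lhx8* and *Isl1* of the identity genes passed the filter on low counts, through the striatal libraries, so that their number is no support. *Lhx8* had 331 UMIs against 0, at least 40.2-fold higher against a floor of 3 pooled counts, and *Isl1*, with 2 UMIs in the PFC libraries, had a log2 difference of 5.28 (SE 0.64, adjusted p = 4.84e-05, edgeR). Of 4 handling genes tested none was higher and 2 were lower, *Lypd6* at -2.34 and *Ric3*, a chaperone of nicotinic receptors, at -0.70. Of 14 effectors 2 were higher (*Rgs4*, a regulator of G protein signalling, at 1.63, and *Gnai2* at 0.72) and 2 lower (the M-current channel gene *Kcnq3* at -0.95, and *Kcnj9* at -0.77), and neither of 2 nicotinic subunits was called, with 0 at an unadjusted p under 0.05. The calls of *Kcnj9* and *Gnai2* were lost with DESeq2 (adjusted p = 0.0863 and 0.0748) and with 6 of 8 libraries left out. For *Kcnj9* these were all but PFC *Setd1a*+/- replicate 1 and striatal *Setd1a*+/- replicate 2 (adjusted p up to 0.147, edgeR), and for *Gnai2* all but WT replicate 2 of each tissue (up to 0.109). That of *Ric3* was lost without PFC WT replicate 1 (adjusted p = 0.0543) or striatal WT replicate 2 (0.0699, both edgeR). The excitatory markers named above moved with this comparison, from 6.69 and 4.81 CPM in PFC to 189 and 98.7 CPM in striatal interneurons for *Slc17a7* and *Neurod6*, and their part in these results was not tested.

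For the main question of the study, *Setd1a*+/- was compared with WT within each type. In the 8 PFC types, 6 tests of 4 members were possible and none was called, at a background of 0% of genes in each type. None had an unadjusted p under 0.05, and DESeq2 called none of the 6. In excitatory neurons the log2 fold changes were 0.04 for *Chrm1* (SE 0.27), -0.40 for *Chrm2* (SE 0.33), -0.16 for *Chrm3* (SE 0.25) and -0.11 for *Ache* (SE 1.30), the last with the wide error that its replicates give. Leaving out WT replicate 2 or *Setd1a*+/- replicate 1 turned the direction of *Ache*.

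In the 10 striatal types, 12 tests of 7 members gave no call either, at a background of 0% in each type except D2 MSNs, where 0.0397% of genes passed. All 12 log2 fold changes were below 0, from -1.08 to -0.01. The median over all genes was 0.008 in striatal interneurons. The share of all genes below 0 was not counted, so the common sign is a description only. The tests are not independent, since 7 of them come from the same interneuron libraries. With the replicate number as a block no member was called in either tissue, while calls over all genes were 26 against 0 in the PFC and 79 against 4 in the striatum. DESeq2 called none of the 12, and 1 of them had an unadjusted p under 0.05 by edgeR.

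That test was *Slc18a3* in striatal interneurons. Its levels of 25.0 and 25.5 CPM in WT against 16.0 and 10.4 CPM in *Setd1a*+/- did not overlap, and the log2 fold change was -0.91 (SE 0.38, unadjusted p = 0.0284, adjusted p = 1.00, edgeR). *Chat* in the same cells, at 12.1 and 16.5 CPM against 9.85 and 3.77 CPM, did not overlap either and gave -1.08 (SE 0.52, unadjusted p = 0.0571, edgeR), which was -0.48 without *Setd1a*+/- replicate 2, whose 3.77 CPM lies in the range of the near-empty droplets, and -1.84 without *Setd1a*+/- replicate 1. *Slc18a3* was -0.61 and -1.23 in the same settings. How many of all genes lie without overlap of the genotypes was not counted, so the separation of *Slc18a3* and *Chat* is a description only. Among striatal interneurons both genes were found only in the cholinergic cells. These numbered 7 and 8 in the WT libraries and 2 and 6 in the *Setd1a*+/- libraries. The number of such cells and the level per cell were not separated in these tests. With the replicate number as a block the unadjusted p was 0.0239 for *Slc18a3* and 0.0493 for *Chat*, and neither was called (adjusted p = 0.960 and 1.00, edgeR). *Slc5a7* at 92.4 and 202 CPM against 131 and 91.5 CPM overlapped, and its -0.37 (SE 0.30) turned positive without WT replicate 2.

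None of the receptor genes nor *Ache* passed either. In striatal interneurons *Chrm2* gave -0.44 (SE 0.36), *Chrm1* -0.31 (SE 0.29), *Chrm3* -0.23 (SE 0.46) and *Ache* -0.13 (SE 0.26) on the log2 scale. The genotypes did not overlap for *Chrm2* and *Chrm1* (38.6 and 29.6 against 25.9 and 27.3 CPM for *Chrm1*). The share of all genes without such overlap was not counted, so this is a description only. D1 MSNs had -0.14 for *Ache* (SE 0.20) and -0.16 for *Chrm1* (SE 0.16), D2 MSNs -0.26 (SE 0.29) and -0.01 (SE 0.23), and OPCs -0.36 for *Ache* (SE 0.31). Whether the genotype effect differed between D1 and D2 MSNs was tested as an interaction: none of 3 members was called, where 0.0637% of 10989 genes were, with differences of -0.15 for *Ache*, 0.13 for *Chrm1* and 0.38 for *Chrm3*, 0 of them at an unadjusted p under 0.05 in edgeR; DESeq2 was not run for it.

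**Figure D5:**
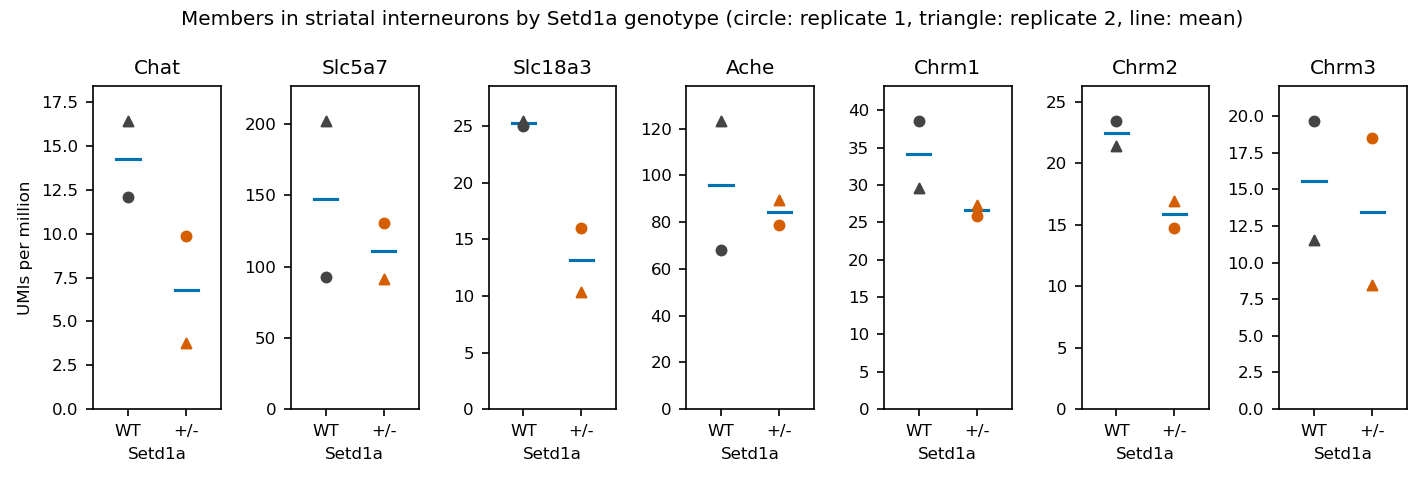
Level (vertical axes, CPM from 0, each panel with its own scale) of 7 members in striatal interneurons of WT and *Setd1a*+/- libraries; circles are replicate 1, triangles replicate 2 and bars means of 2. The genotypes do not overlap for *Chat*, *Slc18a3*, *Chrm1* and *Chrm2* and overlap for *Slc5a7*, *Ache* and *Chrm3*, and no member passed the test. The share of all genes without overlap was not counted, so this is a description only.

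In 6 PFC excitatory subtypes, 16 tests of 4 members gave no call and none at an unadjusted p under 0.05, again at a background of 0% and with no call by DESeq2. With the replicate number as a block no member was called, and 11 genes were called over all genes, against 0 without it. DL-Pou3f1, which had fewer than 10 cells in some libraries, was left out. The smallest unadjusted p was 0.114 (edgeR), for *Chrm3* in DL-Nnat with a log2 fold change of -0.71 (SE 0.40). *Chrm2* in DL-Tshz2, where it is concentrated, gave -0.32 (SE 0.35), and *Chrm1* in SL-Myh7 gave -0.34 (SE 0.35).

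The 4 pathway lists gave no genotype call in any type or subtype with all libraries. Of 10 identity tests in the striatum, 1 had an unadjusted p under 0.05: *Slc17a8* in interneurons, at 43.2 and 43.6 CPM in WT against 30.8 and 7.54 CPM in *Setd1a*+/-, with a log2 fold change of -1.22 (SE 0.41, unadjusted p = 0.0102, adjusted p = 1.00, edgeR). Without *Setd1a*+/- replicate 1 it passed the threshold (-2.47, adjusted p = 0.00143, edgeR), but that sets 1 *Setd1a*+/- library, assumed to vary like the WT pair, against 2, and without *Setd1a*+/- replicate 2 it was -0.45 (adjusted p = 0.980, edgeR). The other list tests at an unadjusted p under 0.05 went both ways. In PFC newly formed oligodendrocytes they were *Tmem35a* (2.05), *Gnai3* (0.88) and *Ric3* (-1.21), of 28 handling and 69 effector tests in the PFC. *Rgs4* gave 0.42 in striatal interneurons, of 95 effector tests. Of 86 effector tests in the subtypes, *Kcnj6* gave -0.90 in DL-Foxp2 and *Rgs4* 0.97 in DL-Nnat, the latter past the threshold without *Setd1a*+/- replicate 1 (1.26, adjusted p = 0.0123, edgeR), again with 1 *Setd1a*+/- library that is assumed to vary like the WT pair, and at 0.60 without *Setd1a*+/- replicate 2 (adjusted p = 0.488, edgeR). The p-values with all libraries rest on the spread between libraries of pooled mice, 2 for each genotype and tissue. edgeR estimates that spread for each gene with information shared over all genes tested.

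For each member with at least 200 UMIs, the genes with the most similar profile over the 18 tissue and cell type combinations were found by Pearson's r of log2(CPM + 1) among 11304 genes, as a description. *Slc5a7* was nearest to *Pvalb* (r = 0.850) and *Cplx3* (0.831). *Ache* was nearest to *Cacna2d2* (0.914), *Gpr162* (0.913) and *Hap1* (0.892), and *Chrm1* to *Tmem191c* (0.979), *Gabarapl1* (0.973) and *Cst6* (0.972). *Chrm2* was nearest to *Kcnj6* (0.963), which encodes a potassium channel subunit that Gi-coupled receptors open, and then to *Cadps2* (0.920) and *Rspo2* (0.918). *Chrm3* was nearest to *Cpne4* (0.935), *Cdh12* (0.927) and *4930447C04Rik* (0.924). The profiles share libraries and depth, and the number of types makes a high r easy to reach for genes of a few types.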

How the data were processed

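The 8 libraries (2 WT and 2 *Setd1a*+/- in each of PFC and striatum) were deposited by the authors as matrices of UMI counts per gene and barcode, made with Cell Ranger 3.0.2 against mm10 per the submitters' processing notes. Cell types and PFC excitatory subtypes came from the deposited annotation (Seurat 3.2.0), which had left out cells with under 800 genes or over 10% mitochondrial UMIs, and no doublet caller was run. The members and lists were chosen with earlier results of these data known.

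Counts were summed per library and type and given as CPM. Sums with at least 10 cells per library (3 for cholinergic cells) were tested by edgeR's quasi-likelihood test (4.0.16, R 4.3.3, TMM, filterByExpr with a minimum count of 10) with Benjamini-Hochberg adjustment over all genes tested. A call needed an adjusted p under 0.05 and a fold change above 1.5, or above 2 for the striatal genotype and cholinergic comparisons. The genes named were the 8 members, the 3 genes nearest in profile to each member with at least 200 UMIs (among genes with at least 20 CPM in 1 type), and up to 4 genes of each list, those with the smallest p. Cells were thinned to 1000 UMIs for shares, and shares carry 95% Wilson intervals. The library totals of 15154268 to 26277553 UMIs set the precision. On simulated counts, 92.5%, 99.4% and 62.2% of 4-fold changes were called in the PFC excitatory genotype, interneuron tissue and cholinergic comparisons (11665, 7419 and 6963 genes). Those counts had the same fixed dispersion for every gene and no replicate effect. Smaller changes and the striatal genotype comparisons were not simulated, so these shares do not measure the power of the genotype tests. Per the study's methods, every biological replicate comprised 1 WT and 1 mutant sample, and the deposited libraries carry matching replicate numbers, which pairs the genotypes within a tissue. Over all annotated cells, same-numbered samples deviated together, with a correlation of 0.514 in the PFC and 0.615 in the striatum (2 pairs each). Within cell types it ran from 0.220 to 0.654 in the PFC. In the striatum it ran from 0.101 to 0.451, with 0.146 in interneurons. Fits without the pairing are the main ones. Alternatives were DESeq2 1.42.0, RLE size factors, no filter, other rules for cholinergic cells, the replicate number as a block and leaving out each library. The fit of cholinergic cells with all 4 libraries was chosen after seeing the data. Some genes that the naming rule or marker lists hold are not reported here.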

Additional observations from a re-analysis of the deposited data

Results flagged for a closer look

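Cells with at least 2 of *Chat*, *Slc5a7* and *Slc18a3* were also present among striatal barcodes that carry no annotation. At 1000 UMIs or more there were 15 (5 and 4 in the WT and 3 and 3 in the *Setd1a*+/- libraries), against 23 annotated ones and 0 such barcodes in the PFC. All 15 had over 10% mitochondrial UMIs (median 24.1%, 10.4% to 58.8%), and 2 of them also had under 800 genes. *Chat* was found in 10 of them and *Ache* in 13. A further 12 barcodes had more than 100 and fewer than 1000 UMIs, 3 and 7 in WT and 2 and 0 in *Setd1a*+/-. Droplets with at most 100 UMIs held 69 UMIs of *Chat*, 305 of *Slc5a7* and 87 of *Slc18a3* in the striatal libraries, against 0, 9 and 2 in the PFC. These barcodes entered none of the comparisons, and the shares of cholinergic cells given above are shares of annotated interneurons.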

How the results depend on the processing

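Over the 7 cell types shared by the tissues, the calls of members, each counted once per type, numbered 1 between striatum and PFC, and became 9 with no filter on low counts, 2 with the replicate block, and 1 to 4 with a library left out. With the replicate block, calls over all genes were 26 against 0 for genotype in the PFC types, 79 against 4 in the striatal types, 11 against 0 in the subtypes and 3499 against 2837 between tissues, with no member called for genotype. With no filter those calls were 63, 110, 28 and 6957, and with DESeq2 1, 5, 0 and 2511. The interaction of genotype and MSN type had 7 calls, and 4 with the replicate block in place of the library factor. Calls in cholinergic cells were 593, and 270 with DESeq2, 440 for cells with *Chat*, 578 with all 4 libraries and 290 to 505 with a library left out. They were 448 for cells with any of the 3 genes, in a fit that also held all 4 libraries. With a library left out, which leaves 1 genotype with a lone library assumed to vary like the other pair, log2 genotype effects that changed sign ranged, in PFC excitatory neurons, from -3.20 to 2.31 for *Ache*, -0.75 to 0.023 for *Chrm2*, -0.41 to 0.064 for *Chrm3* and -0.33 to 0.34 for *Chrm1*. For *Ache* they ranged from -3.98 to 2.60 in PFC interneurons (0.086 with DESeq2, 0.034 with the replicate block), -7.06 to 1.51 in PFC OPCs (0.10 with DESeq2), -0.55 to 0.036 in D2 MSNs, -0.51 to 0.36 in striatal interneurons and -0.51 to 0.056 in striatal OPCs. The other ranges were -0.34 to 0.29 for *Chrm1* in D2 MSNs, -0.84 to 0.27 for *Chrm3* and -0.84 to 0.30 for *Slc5a7* in striatal interneurons, -0.54 to 0.016 for *Chrm2* in DL-Tshz2, and -0.54 to 0.32 for *Ache* and -0.11 to 0.37 for *Chrm1* in the interaction. *Chrnb2* between tissues ranged from -0.015 to 0.18 and *Chrna4* from -0.12 to 0.25, and *Rgs4* in cholinergic cells was -0.051 with no filter. The cause of these changes was not tested. The low UMI counts of *Chat*, *Slc18a3* and *Chrm4* limit what could be detected.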
